A study of Mus musculus with 48 samples.

Results

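The urea cycle genes are the 6 mouse genes Nags, Cps1, Otc, Ass1, Asl and Arg1, which encode the enzymes that turn ammonia into urea in liver. They were taken by symbol from the gene column of the deposited liver signal table, with the probe set of the highest mean signal where a gene had several. All 6 were found among 21399 gene symbols and 28815 probe sets, as probe sets 10381528 (Nags), 10347117 (Cps1), 10598612 (Otc), 10363541 (Ass1), 10534120 (Asl) and 10368343 (Arg1). Only Ass1 had a second probe set. All 6 lay above the median mean signal of all probe sets (97.37), the filter that left 12803 probe sets for testing.

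Ammonia released by the breakdown of amino acids enters the cycle in the mitochondria of hepatocytes, where Cps1 joins it to bicarbonate and Otc passes the product on to ornithine. Cps1 works only in the presence of N-acetylglutamate, the activator that Nags makes. The remaining steps run in the cytosol, where Ass1 and Asl add a second nitrogen from aspartate and Arg1 splits arginine into urea and ornithine. In liver the enzymes are most abundant in periportal hepatocytes, and their genes are known to respond to dietary protein, glucagon and glucocorticoids.

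Liver RNA came from male mice of 10 to 12 weeks by the labels, while the study's methods give a higher upper age. The strain is Bl6J in the labels and C57Bl6/J in the study's results. The RNA was measured on Affymetrix Mouse Gene 1.0 ST arrays, which read whole transcripts. Timed sleep restriction (TSR, called SR in the labels) meant that sleep was prevented by gentle handling in the hours ZT0 to ZT6, on 5 days in a row and, after a break of 2 days, on 5 more. Control mice were left alone over the same period. ZT is zeitgeber time, counted in hours from lights on, and both groups had food at all times. Each treatment was sampled at ZT1, ZT7, ZT13 and ZT19 with 3 arrays per group, 24 in all. This allows the daily profile and the level of each gene to be compared between TSR and control liver. By the study's methods, sampling ran at regular intervals from the evening before the last restriction day. On that schedule TSR mice of ZT13 and ZT19 had not had the last session, and those of ZT1 were taken during it. Time of day and the number of sessions therefore cannot be told apart.

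Before any comparison, several features of the arrays need stating. The median signal per array was 88.96 to 108.83 in TSR liver and 84.54 to 100.87 in control liver. The array numbers in the labels ran over 1 to 12 for TSR liver and over 37 to 48 for control liver, so that treatment and array numbering cannot be told apart. TSR ZT1 replicate 3 and control ZT7 replicate 3 departed from their own partners in a shared direction, and along that direction all 3 control ZT19 arrays scored 28.17 to 30.69 (projection of the log2 signals of the tested probe sets), against -20.75 to 16.31 in the 19 arrays left. These 5 arrays are called the set-apart arrays, and every control ZT19 value rests on them. Without them, mean differences between TSR and control covered ZT1, ZT7 and ZT13 only. A 24 h curve in control liver then fits the 3 time means exactly and tests only differences among them. The summed signal of 10 pancreas markers was 10369 in TSR ZT19 replicate 3 and 1143 in TSR ZT13 replicate 3, against at most 820.23 in the other TSR arrays and 514.28 to 712.34 in control arrays. The defining hepatocyte markers were strongly present, with mean signals from 3132 (Hnf4a) to 11900 (Alb). Their summed signal was 60776 to 74104 in TSR liver and 59121 to 66310 in control liver. In the mean over the 4 times 4 of 8 were higher in TSR liver (adjusted p under 0.05), beside 13.8% of all tested probe sets. These are bulk samples, in which fewer cells of a type and less RNA per cell cannot be told apart.

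Arg1 and Nags were higher in TSR liver, Otc was lower at a single time, and Asl had a daily rhythm in control liver. Averaged over the 4 times, 2 of the 6 genes were called at an adjusted p under 0.05 (limma with Benjamini-Hochberg adjustment over 12803 probe sets), both of them higher in TSR liver. Among all tested probe sets 13.8% were called higher (1770) and 13.2% lower (1689), together 27%, so that calls in the mean were common. After quantile normalization these numbers became 1256 higher and 2359 lower. The median difference of the 6 genes was 0.06 on the log2 scale, beside 0.02 over all tested probe sets. At single times, Arg1 was called at ZT1 (higher, background 1.66% of probe sets, or 2.72% in either direction) and at ZT7 (higher, background 7.51%, with 7.3% lower). At ZT13 3 of 6 genes were called (background 17.8%), of which Nags and Arg1 were higher (background 8.62%) and Otc was lower (background 9.22%). No gene was called at ZT19 in the limma fit, where 1 of 6 had an unadjusted p under 0.05 and 15.1% of all probe sets were called (8.95% higher and 6.15% lower). A 24 h cosine was called in limma for 0 of 6 genes in TSR liver (background 2.47%), where Otc had an unadjusted p of 0.0304, and for 1 of 6 in control liver (background 12.6%). The control background ran from 7.47% to 32.8% when 1 array was left out. It was highest without control ZT7 replicate 3, where 2 of 6 genes were called. Without a curve, differences among the 4 times were called for 0 of 6 genes in TSR liver (background 6.48%), where Otc had an unadjusted p of 0.0181, and for Nags and Asl in control liver (background 43.2%).

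**Figure D1:**
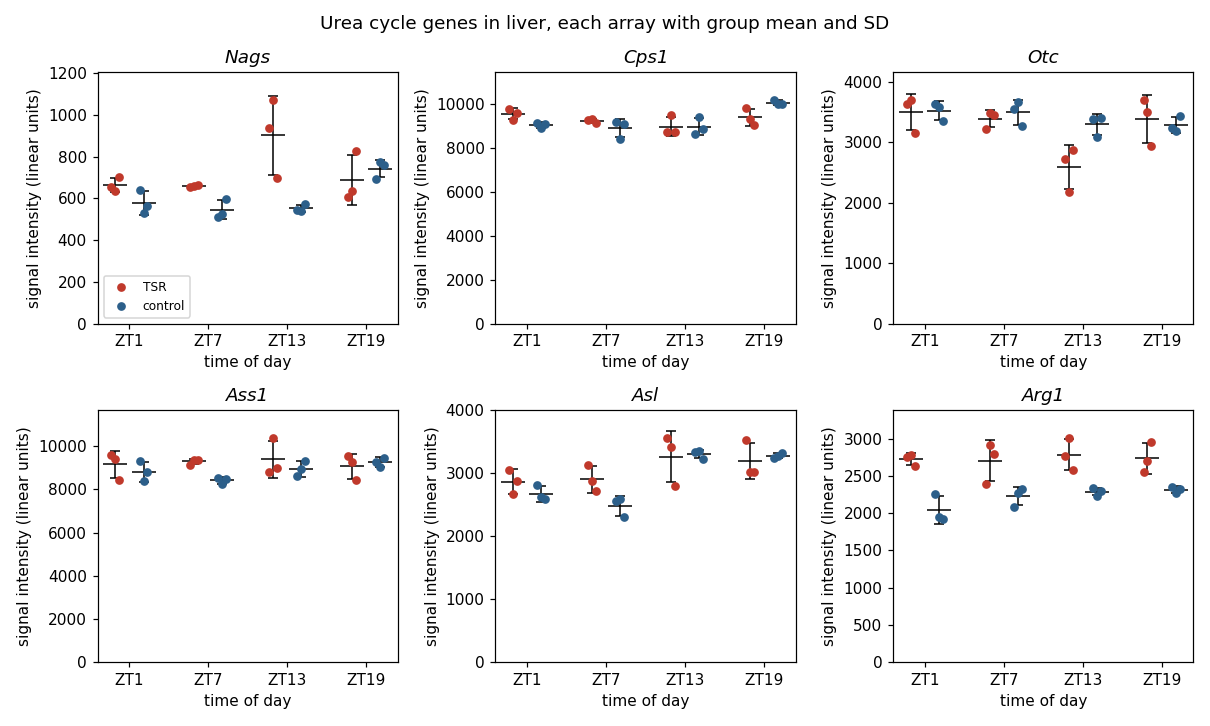
Signal intensity (linear units, axis from 0) of the 6 urea cycle genes on each of 24 liver arrays by zeitgeber time, with TSR arrays in red on the left and control arrays in blue on the right of each pair, and the group mean and SD in black (3 arrays per group). Arg1 lies between 2399 and 3010 in TSR liver and between 1918 and 2352 in control liver, Nags is raised at ZT13 in TSR liver, and Otc is lowest at ZT13 in TSR liver.

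Promoter windows were at hand for 3 of the 6 genes, Nags, Otc and Ass1, and are shown because Nags and Otc differed in opposite directions at ZT13 while Ass1 was not called at any time. Each window runs from 250 bases before to 50 bases after the RefSeq start site (build GRCm38.p6), 5′ to 3′ on the plus strand, with matches to the searched motifs in capitals: Nags at chr11:102145263-102145562, Otc at chrX:10252055-10252354 and Ass1 at chr2:31470020-31470319.
Nags: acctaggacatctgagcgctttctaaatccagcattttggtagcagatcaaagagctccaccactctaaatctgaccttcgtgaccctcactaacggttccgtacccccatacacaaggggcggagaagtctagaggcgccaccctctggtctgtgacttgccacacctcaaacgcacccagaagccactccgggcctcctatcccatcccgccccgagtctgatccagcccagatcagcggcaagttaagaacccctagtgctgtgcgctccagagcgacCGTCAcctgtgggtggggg
Otc: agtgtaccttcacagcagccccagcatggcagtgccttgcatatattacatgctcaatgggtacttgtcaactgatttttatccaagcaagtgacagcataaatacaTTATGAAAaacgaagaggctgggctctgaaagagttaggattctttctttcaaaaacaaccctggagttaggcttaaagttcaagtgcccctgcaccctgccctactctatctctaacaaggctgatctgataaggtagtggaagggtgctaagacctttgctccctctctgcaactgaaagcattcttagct
Ass1: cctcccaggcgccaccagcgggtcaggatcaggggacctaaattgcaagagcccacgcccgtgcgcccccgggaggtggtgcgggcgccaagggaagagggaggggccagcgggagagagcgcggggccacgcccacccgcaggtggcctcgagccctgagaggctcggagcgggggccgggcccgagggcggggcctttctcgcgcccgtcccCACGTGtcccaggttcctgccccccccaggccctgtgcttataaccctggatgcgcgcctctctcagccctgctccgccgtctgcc
The motifs, searched on both strands, were the C/EBP sites TTGCGCAA and TTGCNNAA, the glucocorticoid receptor motif AGAACA, the cAMP response element TGACGTCA and its shorter form TGACG, the E-box CACGTG, the D-box TTATGNAA and the HNF4 core CAAAGTCCA. The looser C/EBP pattern contains the stricter one, and the short form TGACG lies within the full cAMP response element. The Otc window held 1 match, a D-box that starts 143 bases before the start site, as did 3.38% of the 32851 promoter windows of the same length. In the Nags window the only match was TGACG on the minus strand, 31 bases after the start site, a motif found in 20.8% of windows. The Ass1 window held an E-box that begins 36 bases before the start site, as did 7.15% of windows. These matches describe letters in the sequence, and no binding was measured.

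Nags, which makes the activator of the cycle, averaged 729 ± 143 in TSR liver and 605 ± 92.1 in control liver (signal, SD, n = 12 each). The difference over the 4 times was 0.26 on the log2 scale (SE 0.06, 1.20-fold, limma adjusted p = 0.00657), and the array ranges overlapped, at 606 to 1073 in TSR liver and 513 to 776 in control liver. The difference was largest at ZT13. There the 3 TSR arrays read 939, 1073 and 698, against 543, 542 and 571 in control liver. Every TSR array stood above every control array at this time, as was the case for 16.8% of all tested probe sets, although the TSR arrays spread widely and the lowest of them was replicate 3. At ZT13 Nags was 1.61-fold higher in TSR liver (log2 difference 0.69, SE 0.13, limma adjusted p = 0.00345). The log2 difference was 0.86 without TSR ZT13 replicate 3, the lowest of the 3 TSR arrays. It was 0.55 without replicate 2, the highest of them (limma adjusted p = 0.0197).

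At ZT7 the TSR arrays of Nags lay close together at 655, 662 and 666, against 513, 527 and 598 in control liver. Here too the groups did not overlap (20.1% of probe sets did the same), but the log2 difference of 0.28 was not called (95% interval 0.01 to 0.55, limma adjusted p = 0.144). At ZT1 the values were 657, 636 and 702 in TSR liver, while control arrays gave 642, 532 and 564, and the groups overlapped. At ZT19 the order of the means was the other way round, with 606, 634 and 826 in TSR liver, while control arrays gave 695, 776 and 759. The log2 difference there was -0.12 (95% interval -0.39 to 0.15), and the highest TSR value came from replicate 3, the array with the pancreas signal, without which the difference was -0.26 (limma adjusted p = 0.184).

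The highest mean of Nags therefore stood at ZT13 in TSR liver (903 ± 190) and at ZT19 in control liver (743 ± 42.9, SD, n = 3 each). Whether the size of the TSR difference changed with time was tested as treatment by time point without assuming a curve. Nags was called (limma adjusted p = 0.0278), the only one of the 6 genes to be so, where 20.6% of all tested probe sets were called. The 4 log2 differences spanned 0.81. This call was kept in 19 of 24 fits that left out 1 array, and was lost without TSR ZT19 replicates 1 or 2, control ZT13 replicate 1, or control ZT19 replicates 2 or 3 (highest adjusted p = 0.0569). Without ZT19, the time at which all control arrays are set apart, the span was 0.49 and the call was lost (limma adjusted p = 0.142). When a 24 h cosine was compared between treatments, Nags was not called (limma adjusted p = 0.223, with an unadjusted p of 0.023). The fitted amplitudes were close, 0.21 in TSR liver and 0.23 in control liver on the log2 scale, while the fitted peaks lay at 13.41 h in TSR liver and at 19.55 h in control liver.

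Cps1, the enzyme that fixes ammonia and the entry point of the cycle, had no called difference. It averaged 9302 ± 358 in TSR liver and 9259 ± 557 in control liver (SD, n = 12 each), a log2 difference of 0.01 with a 95% interval of -0.06 to 0.07. After quantile normalization it was -0.08. At ZT1 the 3 TSR arrays read 9796, 9289 and 9618, against 9152, 8915 and 9115 in control liver, so that the groups did not overlap (15.6% of probe sets had all TSR arrays above). The log2 difference of 0.08 was not called (limma adjusted p = 0.507) and was -0.03 after quantile normalization. At ZT19 the order was reversed, with 9836, 9343 and 9064 in TSR liver, while control arrays gave 10206, 10021 and 9999. The control ZT19 arrays, which belong to the set-apart arrays, were the 3 highest of all 24, and all TSR arrays below all control arrays was the case for 18.3% of probe sets. The log2 difference at ZT19 was -0.10 (95% interval -0.23 to 0.03, limma adjusted p = 0.285), and the groups overlapped at ZT7 and ZT13.

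Otc, which joins carbamoyl phosphate to ornithine, was lower in TSR liver at ZT13. The TSR arrays at that time read 2722, 2182 and 2870, against 3390, 3090 and 3408 in control liver. All 3 TSR arrays lay below all 3 control arrays (17.3% of probe sets did so), and they were the 3 lowest of all 24 liver arrays. Otc was 0.78-fold of control at ZT13 (log2 difference -0.36, SE 0.10, limma adjusted p = 0.0249). The call rested on few arrays, since it was lost without TSR ZT13 replicate 2, the lowest array, where the difference was -0.24 (limma adjusted p = 0.103), and without control ZT13 replicate 1 (-0.33, adjusted p = 0.077) or replicate 3 (-0.33, adjusted p = 0.0788).

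At the other times the Otc groups overlapped. The TSR arrays read 3639, 3695 and 3159 at ZT1, against 3629, 3590 and 3344 in control liver. At ZT7 they were 3224, 3487 and 3447 in TSR liver, while control arrays gave 3547, 3662 and 3269. At ZT19 the 3 TSR arrays gave 3701, 3496 and 2939, against 3237, 3190 and 3435 in control liver. The ZT13 dip gave Otc the larger fitted amplitude in TSR liver, 0.22 against 0.06 in control liver on the log2 scale, but neither the TSR rhythm (limma adjusted p = 0.188) nor the difference in rhythm (limma adjusted p = 0.421) was called. Over the 4 times Otc averaged 3213 ± 463 in TSR liver and 3399 ± 183 in control liver (SD, n = 12 each), a log2 difference of -0.09 that was not called (limma adjusted p = 0.174). After quantile normalization it was -0.13 and was called (limma adjusted p = 0.0346).

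Ass1, which joins citrulline to aspartate, averaged 9234 ± 536 in TSR liver and 8867 ± 420 in control liver (SD, n = 12 each). The log2 difference of 0.06 was not called (95% interval -0.02 to 0.14, limma adjusted p = 0.271), and it was -0.03 after quantile normalization. The groups separated only at ZT7, where the TSR arrays read 9160, 9390 and 9361, against 8537, 8243 and 8485 in control liver. That log2 difference of 0.14 was not called either (limma adjusted p = 0.207), and it was -0.01 after quantile normalization. At the remaining times the ranges overlapped, with 8420 to 10385 in TSR liver and 8377 to 9483 in control liver. The 2 Ass1 probe sets ran in parallel, with a ratio of 1.02 to 1.04 on all 24 arrays, and the second gave 0.05 for the mean difference. The annotation used by the study ties both probe sets also to the pseudogene Gm5424, so that part of this signal may come from a near-identical copy.

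Asl, which releases fumarate and arginine, was the gene with a called 24 h cosine in control liver. Nags lay near the threshold in that test (limma adjusted p = 0.0511) and was called in control liver without a curve (limma adjusted p = 0.00779). In TSR liver the Asl arrays read 3061, 2667 and 2876 at ZT1 and 3129, 2870 and 2712 at ZT7. At ZT13 the TSR arrays gave 3561, 3424 and 2800, and at ZT19 they gave 3523, 3027 and 3028. In TSR liver the dark-phase arrays overlapped the light-phase arrays, with replicate 3 at ZT13 and replicates 2 and 3 at ZT19 below the highest light-phase arrays. The control arrays read 2817, 2617 and 2586 at ZT1, then 2562, 2585 and 2302 at ZT7. At ZT13 the control arrays read 3336, 3361 and 3234, and at ZT19 they read 3243, 3272 and 3330. All 6 control arrays of the dark phase thus lay above all 6 of the light phase.

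The fitted amplitude of Asl was 0.11 on the log2 scale in TSR liver, with a peak at 15.46 h (limma adjusted p = 0.452), and 0.25 in control liver, with a peak at 16.51 h (limma adjusted p = 0.00324). The control call held in all 36 other settings run, and 17.7% of tested probe sets had a larger amplitude in control liver. Without the set-apart arrays (amplitude 0.26, limma adjusted p = 0.0228) or without ZT19, control liver had no ZT19 arrays. These 2 fits could therefore test only differences among the times left, and not a 24 h curve. The difference in rhythm between TSR and control liver was not called (limma adjusted p = 0.399), as for all 6 genes (background 0.367%, and 3.51% without TSR ZT19 replicate 3). Among the 6 only Nags had an unadjusted p under 0.05, so the calls do not show that the rhythms differ. At ZT7, the control low point, the TSR arrays of Asl stood above the control arrays by 0.23 on the log2 scale (95% interval 0.03 to 0.42, limma adjusted p = 0.0998).

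Arg1, the last enzyme of the cycle, was higher in TSR liver in the mean and on every TSR array. It averaged 2739 ± 180 in TSR liver and 2220 ± 150 in control liver (SD, n = 12 each), a 1.23-fold higher level (log2 difference 0.30, SE 0.04, limma adjusted p = 0.000212). The lowest TSR array, at 2399, stood above the highest control array, at 2352. A separation of all 12 TSR arrays above all 12 control arrays was found for 13 of 12803 probe sets (0.102%), and 3 probe sets (0.0234%) separated in the other direction. The call was kept in all 35 other settings, with log2 differences of 0.27 to 0.34.

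By time, Arg1 read 2754, 2789 and 2633 in TSR liver at ZT1, while control arrays gave 2263, 1951 and 1918. At ZT7 the values were 2399, 2923 and 2795 in TSR liver, while control arrays gave 2090, 2275 and 2320. TSR replicate 1 at ZT7 was the lowest of all TSR arrays, and control replicate 3 at ZT1 the lowest of all control arrays. At ZT13 they were 2775, 3010 and 2582 in TSR liver, while control arrays gave 2335, 2236 and 2301. The ZT19 arrays gave 2548, 2699 and 2964 in TSR liver, while control arrays gave 2352, 2266 and 2332. The groups did not overlap at any of the 4 times (at ZT19 22.7% of probe sets had all TSR arrays above). The log2 difference was 0.42 at ZT1 (limma adjusted p = 0.0152), 0.28 at ZT7 (limma adjusted p = 0.0398), 0.28 at ZT13 (limma adjusted p = 0.0343) and 0.24 at ZT19 (limma adjusted p = 0.0695, not called). The single-time calls were less firm than that of the mean. The ZT1 call was lost without TSR ZT1 replicate 2 or control ZT1 replicate 2 or 3 (highest adjusted p = 0.092), and the ZT13 call without TSR ZT13 replicate 1 or 2 or any 1 of the control ZT13 arrays (highest adjusted p = 0.107). The ZT7 call was lost without TSR ZT7 replicate 2 or 3, any 1 of the control ZT7 arrays, or control ZT19 replicate 1 or 3 (highest adjusted p = 0.146). The 4 differences were not shown to differ from each other (treatment by time point, limma adjusted p = 0.587), and no rhythm was called in TSR liver (amplitude 0.02) or control liver (amplitude 0.09).

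Arg1 is also expressed by macrophages. Of 8 Kupffer cell and macrophage markers on the array 7 passed the filter, and 0 of 7 were called in the mean difference by limma (background 27%). None reached an unadjusted p under 0.05 there (median log2 difference -0.002). By time the median was -0.29 at ZT1 (3 of 7 at an unadjusted p under 0.05), -0.07 at ZT7 (1 of 7), 0.23 at ZT13 (1 of 7) and 0.08 at ZT19 (1 of 7). At each time 0 of 7 were called. The summed signal of all 8 macrophage markers was 2043 to 2779 in TSR liver and 1866 to 3087 in control liver. Of 8 hepatocyte markers 4 were, like Arg1 and Nags, called higher in the mean (background 13.8%), with a median log2 difference of 0.12 over all 8. Their part in the result was not tested. Of the stellate cell and fibroblast markers past the filter 2 of 5 were called higher in the mean (background 13.8%). The summed signal of that list was 2987 to 4411 (median 3535) in TSR liver and 2744 to 3784 (median 3143) in control liver. Of 6 endothelial markers 1 was called higher and 0 lower in the mean (median log2 difference 0.01). At ZT1 2 of 6 were called lower (background 1.05%, median -0.36). At ZT7 1 was called higher (background 7.51%) and 1 lower (background 7.3%). Higher calls numbered 1 at ZT13 (background 8.62%, median 0.19) and 1 at ZT19 (background 8.95%, median 0.24). A difference in rhythm was called for 1 of 6 endothelial markers (background 0.367%). Of 5 mesothelial markers none passed the filter, and their summed signal was 306 to 566 (median 428) in TSR liver and 257 to 429 (median 332) in control liver, with 434 to 566 in TSR liver and 258 to 300 in control liver at ZT7. The part of these markers in the result was not tested either. Without TSR ZT19 replicate 3, the array with the pancreas signal, the mean difference was 0.29 for Arg1 (limma adjusted p = 0.000263) and 0.23 for Nags (limma adjusted p = 0.0107). Without the set-apart arrays the mean difference covered ZT1, ZT7 and ZT13 only. It was then 0.34 for Arg1 (limma adjusted p = 0.00209) and 0.40 for Nags (limma adjusted p = 0.00554). With only ZT19 left out it was 0.33 for Arg1 and 0.39 for Nags, whose difference at ZT19 was -0.12.

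**Figure D2:**
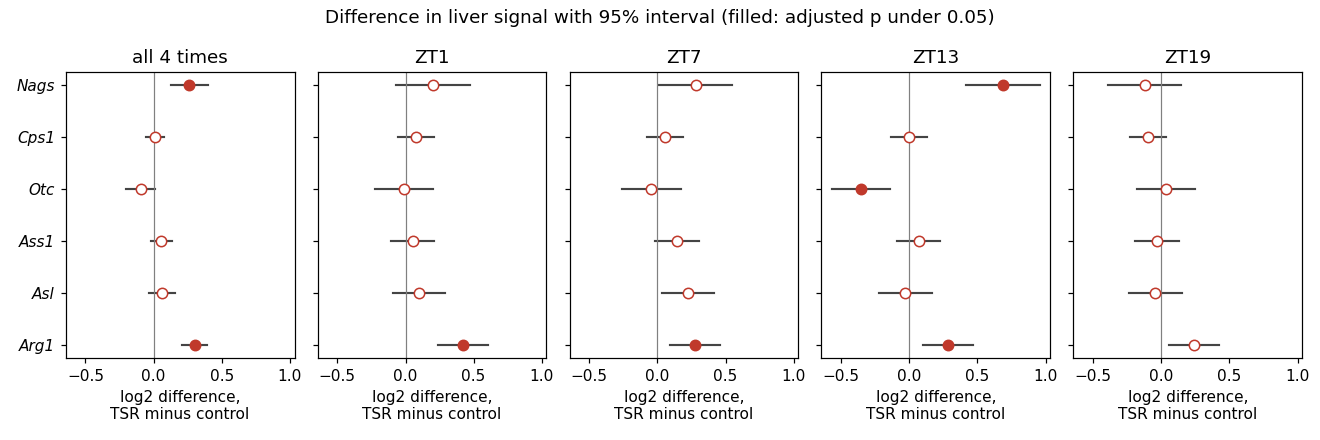
Log2 difference in signal, TSR minus control, for the 6 urea cycle genes over all 4 times and at each zeitgeber time, with 95% intervals (bars) and filled points where the limma adjusted p was under 0.05. Arg1 is above 0 in every panel, Nags reaches 0.69 and Otc -0.36 at ZT13, and Cps1 stays within 0.10 of 0.

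The order of the 8 group means shows how the genes differ in pattern. For Arg1 the 4 TSR groups took the top 4 places and the 4 control groups the lower 4, and only the step between TSR ZT7 and control ZT19 had no overlapping arrays. Nags was led by TSR ZT13 and control ZT19, followed by the other 3 TSR groups, and its single step without overlap lay between TSR ZT7 and control ZT1. For Otc the only such step separated TSR ZT13 from the 7 other groups. For Cps1 it separated control ZT19 at the top, and for Asl control ZT7 at the bottom. Neighbouring Ass1 groups overlapped in all 7 steps.

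**Figure D3:**
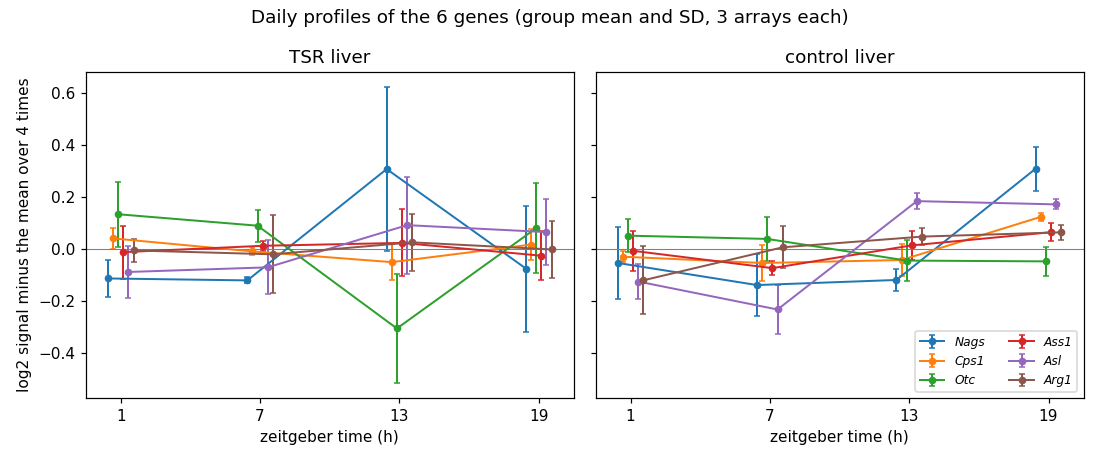
Daily profile of each urea cycle gene as log2 signal minus its mean over the 4 times, in TSR liver (left) and control liver (right), by zeitgeber time in hours, with points for group means and bars for SD (3 arrays each, points shifted sideways for clarity). In TSR liver Nags peaks and Otc dips at ZT13, whereas in control liver Asl is high at ZT13 and ZT19 and Nags is high at ZT19.

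Across the 8 group means the genes did not move as one. Pearson's r with Nags was 0.81 for Ass1 and -0.79 for Otc, while Cps1 and Otc had r = 0.20. These are descriptions over 8 means that share arrays and scaling. By the same measure the profiles most like Nags were Ppic (r = 0.988) and Cetn4 (0.984), and those most like Otc were Tbc1d5 (0.988) and Cd2ap (0.984). Cps1 was nearest to Morf4l2 (0.989) and Cmpk1 (0.967), and Ass1 to Mgst3 (0.971) and Ccdc28b (0.963). For Asl the nearest were Thrsp (0.963) and Pcp4l1 (0.961), and for Arg1 they were 3110049J23Rik (0.968) and Lage3 (0.956).

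Around the cycle stand the carriers, the enzymes that supply nitrogen and those that use its intermediates. Of 28 such genes 25 passed the filter, and over the 4 times 6 were higher and 2 lower in TSR liver (background 13.8% and 13.2%), with a median log2 difference of 0.04. Gpt, the alanine aminotransferase that hands amino groups from alanine into the cycle, was 1.22-fold higher (log2 difference 0.29, limma adjusted p = 0.00275), with means of 694, 801, 872 and 779 at ZT1, ZT7, ZT13 and ZT19 in TSR liver, while control liver averaged 605, 612, 728 and 628. Mdh1, the cytosolic malate dehydrogenase that handles malate formed from fumarate, was 1.15-fold higher (log2 difference 0.20, limma adjusted p = 0.00105), with means of 3214, 3490, 3609 and 3734 in TSR liver, while control liver averaged 3135, 3087, 3023 and 2970. Its mitochondrial counterpart Mdh2 was 1.10-fold higher and Oat, which makes or uses ornithine, 1.12-fold higher. Gls2, the liver glutaminase, and Agmat were the other 2 that were higher, and the 2 lower genes were Glud1, which releases ammonia from glutamate, and the amino acid carrier Slc38a4. Agmat, Glud1 and Slc38a4 were named after their values were seen. Leaving out 1 array at a time gave 5 to 7 higher and 0 to 5 lower genes, and the call was kept in 7 of 24 such fits for Gls2 and Slc38a4 and in 17 of 24 for Glud1. Gpt and Mdh1 alone of the 8 kept their call without the set-apart arrays, and after quantile normalization 3 genes of the list were higher and 5 lower.

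A TSR rhythm was called in limma for 0 of the 25 genes (5 at an unadjusted p under 0.05, background 2.47%), and a control rhythm for 7 of 25 (background 12.6%). The control count was 4 without control ZT19 replicate 1 and 4 without the set-apart arrays, and lay between 5 and 8 without any other single array. The count of 8 came without control ZT7 replicate 3, where the background was 32.8%. Slc25a22, a mitochondrial glutamate carrier, had means of 1532, 1716, 1364 and 1137 in TSR liver, and of 1505, 1970, 1304 and 1088 in control liver, from ZT1 to ZT19. Its amplitude was 0.30 in TSR liver (limma adjusted p = 0.195) and 0.44 in control liver (limma adjusted p = 0.000374). Odc1, which draws ornithine into polyamine synthesis, had a control amplitude of 0.41 (limma adjusted p = 0.00255, and 0.069 without the set-apart arrays), and Prodh, which breaks down proline, of 0.31 (limma adjusted p = 0.00512). A difference in rhythm was called in limma for 0 of the 25 (3 at an unadjusted p under 0.05).

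Of 15 hormone receptors and transcription factors known to act on urea cycle genes or amino acid breakdown, 14 passed the filter. Over the 4 times 2 were higher (Gcgr and Cebpb) and 1 lower (Nr3c1) in TSR liver (background 13.8% and 13.2%), with a median log2 difference of 0.02. Gcgr, the glucagon receptor, was 1.21-fold higher (log2 difference 0.28, limma adjusted p = 0.00178). Its largest difference came at ZT13, as for Nags, with 1486 ± 128 in TSR liver and 999 ± 84.3 in control liver (SD, n = 3 each, 1.49-fold, limma adjusted p = 0.00406). Ppargc1a, a coactivator of the fasting response, was 0.55-fold of control at ZT13 (184 ± 96.4 in TSR liver and 306 ± 55.5 in control liver, limma adjusted p = 0.0267), although its array ranges overlapped. Without TSR ZT13 replicate 2 it was 0.73-fold (limma adjusted p = 0.118) and without TSR ZT13 replicate 3 it was 0.42-fold, and the call was also lost without control ZT13 replicate 1 or 3 (highest adjusted p = 0.09). Nr1h4, the bile acid receptor FXR, was 1.52-fold higher at ZT1 and 0.73-fold of control at ZT7. Nr3c1, the glucocorticoid receptor, was 0.91-fold of control over the 4 times (limma adjusted p = 0.0363) and Cebpb 1.24-fold (limma adjusted p = 0.0371), and both lost their call without the set-apart arrays.

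**Figure D4:**
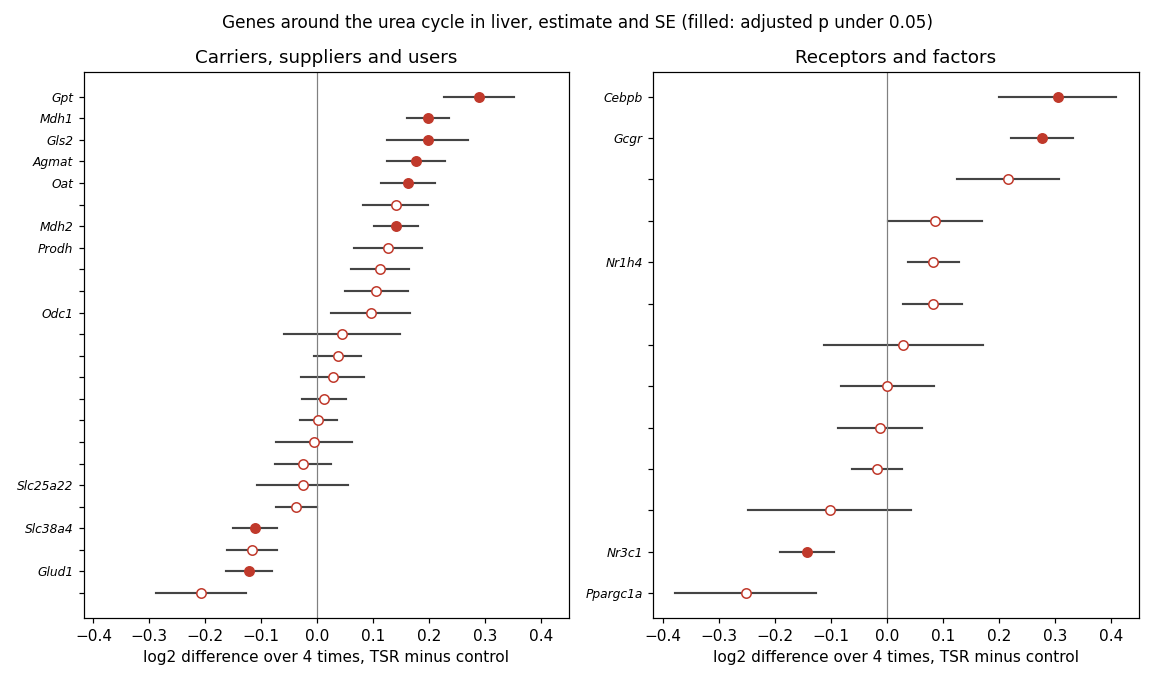
Log2 difference in liver signal over the 4 times, TSR minus control, for carriers, suppliers and users of the urea cycle (left, 24 genes) and for receptors and factors (right, 13 genes), labelled where the text names the gene, with bars for the SE and filled points where the limma adjusted p was under 0.05. Gpt at 0.29 leads the left panel, and Cebpb at 0.31 and Gcgr at 0.28 lead the right panel.

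The enzymes of the cycle are concentrated on the periportal side of the liver lobule, and the zonation markers did not move one way. Of 8 periportal genes 2 were higher (Sds and Gls2) and 1 lower (Hsd17b13) in the mean over the 4 times (background 13.8% and 13.2%), with a median log2 difference of -0.01. After quantile normalization 1 was higher and 2 lower, and without the set-apart arrays only Sds was called, while Gls2 kept its call in 7 of 24 fits that left out 1 array. Of 10 pericentral genes 2 were higher (Oat and Rgn) and 2 lower (Lgr5 and Slc1a2), with a median of 0.01. After quantile normalization 0 were higher and 2 lower (limma adjusted p = 0.0743 for Oat and 0.154 for Rgn), without the set-apart arrays 2 were higher and 1 lower, and Rgn kept its call in 9 of 24 fits that left out 1 array. Sds, the serine dehydratase that frees ammonia from serine, was 1.32-fold higher (log2 difference 0.40, limma adjusted p = 0.00123), with 1287 ± 71.9 in TSR liver and 881 ± 139 in control liver at ZT13 (SD, n = 3 each). Lgr5, a pericentral receptor that amplifies Wnt signals, was 0.80-fold of control (log2 difference -0.33, limma adjusted p = 0.00462). Tbx3, another pericentral gene, was 0.46-fold of control at ZT7 (log2 difference -1.13, limma adjusted p = 0.0066). Hal, the periportal histidine ammonia lyase, had a control rhythm of amplitude 0.29 (limma adjusted p = 0.00222).

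The rest of the series consists of 24 arrays labelled epididymal white adipose tissue (WAT). On 17 of these the urea cycle genes had levels near to or somewhat below those of liver, with Cps1 at 6263 to 8664, beside 8442 to 10206 on the liver arrays, and Otc at 1255 to 2618, beside 2182 to 3701. On the other 7 (3 of 12 TSR and 4 of 12 control) Cps1 was 18.34 to 590.62, Nags 18.33 to 28.27 and Arg1 19.44 to 59.78, while Ass1 kept 759 to 1300 and Asl 111 to 187. The neural gene Snap25 was 2163 to 2842 on those 7, beside 25.19 to 260.09 on the 17. The 4 control arrays among the 7 were ZT7 replicate 3 and ZT19 replicates 1 to 3, labels that belong to set-apart arrays in liver. The 3 TSR arrays were ZT1 replicate 1, ZT13 replicate 2 and ZT19 replicate 3, labels that are not set apart in liver. What lies behind the shared control labels was not tested. Adipoq, the defining adipocyte gene, was 12.62 to 33.11 on all 24, below its 47.96 to 88.32 on the liver arrays, which goes against the label. TSR and control were therefore not compared on these arrays.

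**Figure D5:**
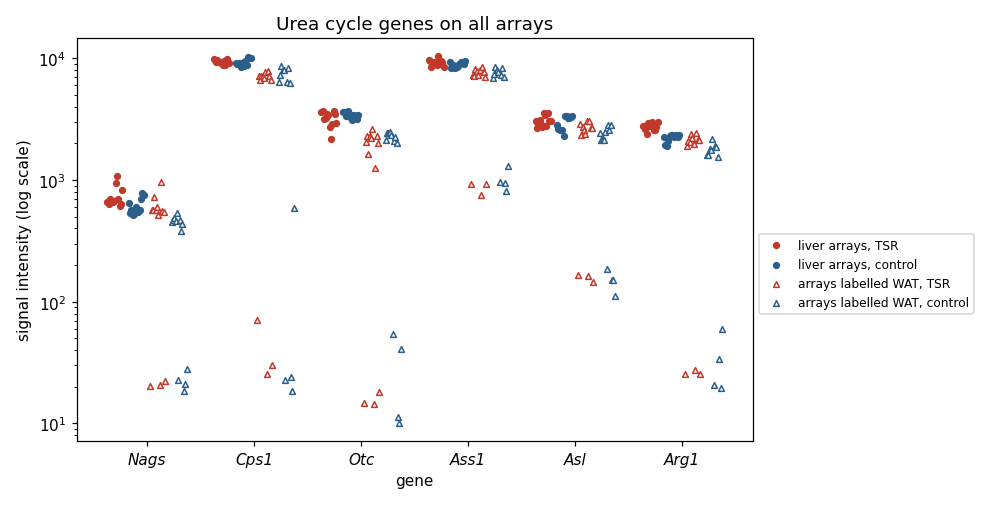
Signal intensity (log axis) of the 6 urea cycle genes on the 24 liver arrays (filled circles) and on the 24 arrays labelled WAT (open triangles), with TSR in red and control in blue. On 17 of the arrays labelled WAT the genes lie near or somewhat below liver levels, and on 7 they lie far lower, with Cps1 at 18.34 to 590.62.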

How the data were processed

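The authors hybridised liver and adipose total RNA to Affymetrix Mouse Gene 1.0 ST arrays and deposited normalized signal intensity values on a linear scale. They used d-Chip. Not given in the sources used here were its version, the background correction and which arrays were scaled jointly. The liver table pairs probe sets with symbols, and its values equal those of the deposited table of all 48 arrays. Precision is limited by 3 arrays per group. The labels do not name the mouse behind each array, while a figure legend of the study counts 3 per time point and speaks of animals. Unless each array is a separate mouse, p-values measure only the spread between arrays, which may be technical.

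Signals (floor 1) were taken as log2 and fitted with limma (version 3.58.1, R version 4.3.3) on the 12803 probe sets that had a symbol and whose mean signal in liver exceeded 97.37 (the overall median). TSR was set against control in a model of 8 group means, averaged over the 4 times and at each time. Rhythms were tested per treatment with a 24 h cosine and sine, and differences in rhythm by their interaction with treatment. Tests were two-sided, with Benjamini-Hochberg adjustment over all tested probe sets and a threshold of 0.05. The fits were tested on simulated data. Same-numbered TSR and control arrays of a time were not treated as pairs. Their departures from the group means correlated above 0.1 in 4 of 12 cases (r of -0.185 to 0.314), and pairing was not tested. The replicate block is an alternative. Alternatives covered filters, quantile normalization, a pseudocount, array weights, the methods' t-test, curve-free tests, and each array left out.

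Members and lists were chosen with earlier results of these data known. Beyond the 6 genes, the text names per list up to 4 genes with the smallest adjusted p in the mean and up to 4 in the other tests, plus the 2 closest profiles per gene. Authors' comparisons were not used. All 6 symbols matched the RefSeq table (GRCm38.p6), and figures were drawn with matplotlib. Results for some genes of the lists are not reported here.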

Additional observations from a re-analysis of the deposited data

Results flagged for a closer look

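The TSR difference of Nags was called as varying across the day, as was the case for 20.6% of all tested probe sets. The limma test of treatment by time point gave an adjusted p of 0.0278, and the log2 difference was 0.20 at ZT1 and 0.28 at ZT7, reached 0.69 at ZT13 and was -0.12 by ZT19. At ZT13 all 3 TSR arrays lay above all 3 control arrays, and at ZT19 the groups overlapped. The control ZT19 arrays are set apart from most others across all genes, and the part of this in the result was not tested beyond leaving ZT19 out, which gave an adjusted p of 0.142. Over the alternatives to this curve-free test the adjusted p ran from 0.00594 to 0.142, and the call was kept in 19 of 24 fits that left out 1 array. A 24 h cosine compared between treatments was not called for Nags (limma adjusted p = 0.223).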

How the results depend on the processing

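With 3 arrays per group, small differences at single times could not be called, and array number and treatment cannot be told apart. The higher mean of Arg1 was called in all 35 other settings (adjusted p 9.09e-06 to 0.00209), that of Nags in all but the methods' t-test (adjusted p = 0.0716), and Asl kept its control call in all 36. The fits without ZT19 or without the set-apart arrays could not test a 24 h curve. Of 48 results (6 genes by 8 tests) 33 kept their side of the threshold and 32 their sign in every setting. For the others the cause was not tested. At ZT13 Nags kept its call in all but the methods' t-test (adjusted p = 0.159), Otc lost it in 5 settings (highest adjusted p = 0.218) and Arg1 in 8 (highest 0.143). Arg1 lost its call in 5 settings at ZT1 and in 12 at ZT7.

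The number of genes called in control rhythm (1) became 2 with the stricter filter at the 75th percentile, with log2 of signal plus 16 and without a curve, and 3 with array weights. With weights 1 gene had a different rhythm, 2 were called at ZT7 and 2 at ZT19, and without a curve 1 had a different profile. The joint fit gave 1 TSR rhythm. At ZT7 the count fell to 0 with no filter, with quantile normalization, without ZT19 and without the set-apart arrays, which also gave 0 at ZT1, and with no filter 1 was left at ZT13. The methods' t-test called 1 gene in the mean and 0 at each of ZT1, ZT7 and ZT13, against 2, 2, 4 and 2 at its unadjusted threshold. Leaving out 1 array gave 1 to 2 genes with a control rhythm, 0 to 1 at ZT1, 0 to 1 at ZT7 and 1 to 3 at ZT13. The arrays that decided this were, for the control rhythm, control ZT1 replicate 2 and control ZT7 replicate 3, for ZT1, TSR ZT1 replicate 2 and control ZT1 replicates 2 and 3, for ZT7, TSR ZT7 replicates 2 and 3, control ZT7 replicates 1 to 3 and control ZT19 replicates 1 and 3, and for ZT13, TSR ZT13 replicate 2 and control ZT13 replicates 1 and 3, each of which left 1 gene, and TSR ZT13 replicate 1 and control ZT13 replicate 2, each of which left 2.

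Quantile normalization moved the split of calls over all probe sets, which was 213 higher and 135 lower for ZT1 (122 and 124 after it), 961 and 935 for ZT7 (705 and 1205) and 1104 and 1180 for ZT13 (785 and 1538). Signs that turned were all of uncalled log2 values. With quantile normalization Cps1 gave -0.078 in the mean, -0.031 at ZT1, -0.11 for ZT7 and 0.036 for the difference in amplitude. Ass1 gave -0.027 in the mean, -0.047 at ZT1, -0.0094 for ZT7, -0.041 at ZT13 and 0.0008 for the amplitude, and Otc gave -0.034 at ZT19. With array weights Otc gave 0.056 at ZT1, Asl 0.0195 at ZT13 and 0.047 at ZT19, and Ass1 0.018 at ZT19. Without the set-apart arrays the amplitude difference was 0.13 for Nags and 0.013 for Cps1, and Otc gave 0.059 at ZT1. Without ZT19 the amplitude difference was 0.24 for Nags and 0.027 for Cps1. Leaving out 1 array at a time turned the sign of further uncalled values, which ran from -0.0959 to 0.0406 for the amplitude difference of Nags, from -0.0021 to 0.0168 for the mean of Cps1, and from -0.0537 to 0.0594 for Otc at ZT1. At ZT13 the ranges were -0.0405 to 0.035 for Cps1, -0.0065 to 0.1113 for Ass1 and -0.0964 to 0.0771 for Asl. At ZT19 they were -0.0357 to 0.1305 for Otc and -0.0692 to 0.0205 for Ass1. ZT19 has no value without the set-apart arrays. Replicate numbers are shared by number only, and with the replicate number as a block no count changed (1 control rhythm, 2 in the mean, 1, 1, 3 and 0 at the 4 times), with Arg1 at 0.30 in the mean (adjusted p = 0.000404).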
